A study of Mus musculus with 2 samples.

Results

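The cells described here are lymphocytes of mouse kidney cortex with no UMI of the CD4 or CD8 coreceptors, the group in which natural killer (NK) cells, innate lymphoid cells, gamma-delta T cells and coreceptor-negative T cells would fall. A UMI (unique molecular identifier) stands for 1 captured transcript. They number 155 of 7308 retained cell barcodes, 104 in the podocyte I-PpoI library and 51 in the wild-type library. A barcode was a member with at least 2 UMIs over 9 lymphocyte genes (Cd3d, Cd3e, Cd3g, Trac, Trdc, Tcrg-C1, Ncr1, Klrb1c and Il7r) and none of Cd4, Foxp3, Cd8a, Cd8b1 or the B cell gene Cd79a. It also held at most 1 UMI of the macrophage C1q genes, 2 of Lyz2 and 2 of H2-Ab1. The values of these genes chose the members and are given as a description.

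NK cells kill stressed cells and are steered by a balance of activating and inhibitory receptors, many of them lectin-like proteins of the Klr families. Innate lymphoid cells lack antigen receptors and are sorted by the cytokines they release, and gamma-delta T cells carry a rearranged receptor but can also respond to cytokines alone. In kidney, resident lymphocytes of these kinds respond to injured epithelium, and interleukin-17A from gamma-delta and other T cells draws in neutrophils.

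Kidney cortex was taken from mice aged 12 weeks, dissociated, with no sort described, and read with a 3-prime droplet assay. The podocyte I-PpoI group, whose podocytes specifically express that enzyme, had 1 library, and the wild-type group also 1. I-PpoI cuts DNA at a long recognition site, and podocytes wrap the capillaries of the glomerulus. The labels give neither the driver of the transgene, nor the sex or number of mice per library. With 1 library per group there was no replicate check and no test of any difference, and all intervals are 95% intervals of counting error only. The deposited libraries held 37811289 and 27793633 UMIs in 5268 and 5536 barcodes, of which 4091 and 3217 were retained (at least 200 genes and at most 50% mitochondrial UMIs). Members held 403392 UMIs in the I-PpoI library and 164115 in wild-type, with medians of 2800 and 3016 UMIs per barcode. Of all deposited barcodes, 6 occurred in both libraries, and 0 of these were members. Mitochondrially encoded genes made up 4.17% of members' UMIs in the I-PpoI library and 8.60% in wild-type, and ribosomal protein genes 28.2% and 19.9%. The part of these differences in the gene results below was not tested.

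Checked against its name, the set was mostly T cells. The T cell receptor alpha constant gene Trac, without gamma-delta genes, was present in 64 of 104 members (61.5%, 51.5 to 70.9%) in the I-PpoI library and 25 of 51 (49.0%, 34.8 to 63.4%) in wild-type. A further 20 (19.2%) and 8 (15.7%) carried only CD3 chains. Gamma-delta constant genes (Trdc or Tcrg-C1) without Trac marked 12 (11.5%, 6.11 to 19.3%) and 2 (3.92%, 0.478 to 13.5%), and 3 and 2 held both kinds. NK receptors (Ncr1 or Klrb1c) without a UMI of CD3, Trac, Trdc or Tcrg-C1 marked 1 I-PpoI member (0.962%, 0.0243 to 5.24%) and 11 wild-type members (21.6%, 11.3 to 35.3%), and Il7r alone 4 (3.85%) and 3 (5.88%). Among lymphocyte barcodes with Cd4 or Foxp3, 36 of 75 I-PpoI barcodes (48.0%) and 7 of 10 wild-type barcodes (70.0%) held just 1 UMI of those genes. For Cd8a and Cd8b1 this was 10 of 72 (13.9%) and 0 of 5 barcodes. Coreceptor-negative T cells and CD4 T cells without a captured Cd4 UMI can therefore not be told apart at this depth.

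**Figure D1:**
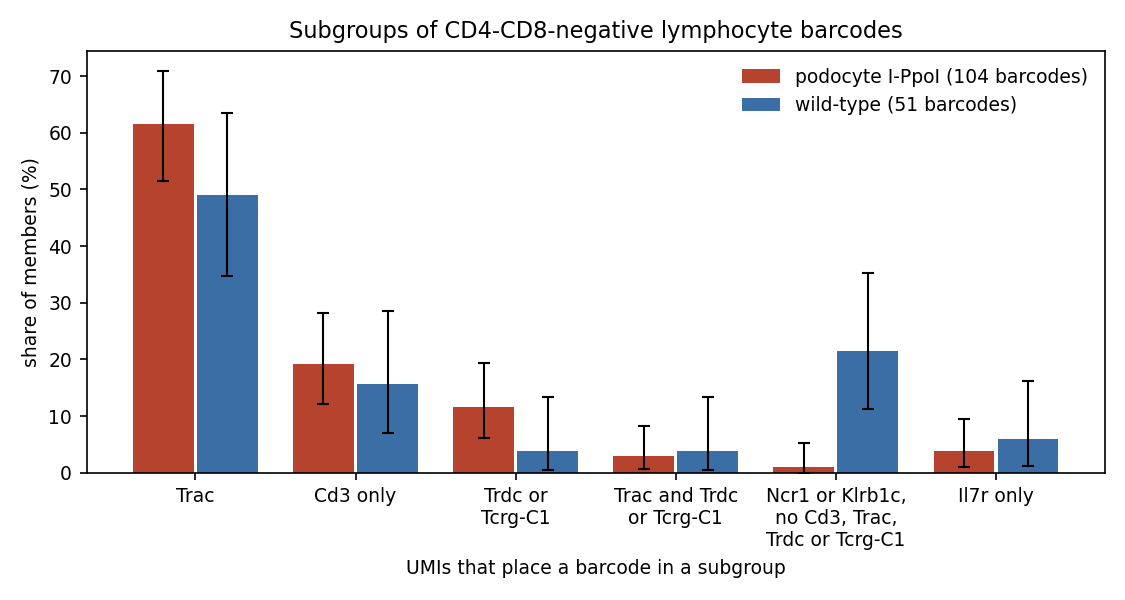
Share of members (%) in each subgroup defined by receptor UMIs, for the podocyte I-PpoI library (red, left bar, 104 barcodes) and the wild-type library (blue, right bar, 51 barcodes), with exact 95% counting intervals as error bars. Barcodes with NK receptors alone made up 0.962% of I-PpoI and 21.6% of wild-type members, while Trac barcodes were the most frequent subgroup in both.

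Near the limit of the rule, 18 I-PpoI and 19 wild-type barcodes held 1 UMI of the lymphocyte genes and met the other conditions, of which 4 and 1 had a UMI of Ptprc, the pan-leukocyte gene. Just inside it, 5 and 3 members held 2 UMIs. The median member held 11 UMIs of these genes in the I-PpoI library and 9 in wild-type. Without counting Il7r, 98 of 104 and 48 of 51 members would still reach 2 UMIs, and without Ncr1 and Klrb1c 102 and 40 would.

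Members made up 2.54% of retained I-PpoI barcodes (104 of 4091, 2.08 to 3.07%) and 1.59% of wild-type barcodes (51 of 3217, 1.18 to 2.08%), a ratio of 1.60 (1.14 to 2.29). The direction turned with the denominator. Proximal tubule barcodes numbered 327 in the I-PpoI and 1832 in the wild-type library, and without them the shares were 2.76% and 3.68%, a ratio of 0.750 (0.532 to 1.07). Of barcodes past the lymphocyte sum, members were 33.4% in I-PpoI (104 of 311) and 75.0% in wild-type (51 of 68). CD8 T barcodes numbered 72 and 5, and CD4 or regulatory T barcodes 75 and 10. As shares of retained barcodes these were 11.3-fold (4.63 to 35.9) and 5.90-fold (3.04 to 12.8) higher in I-PpoI. These ratios also depended on the denominator. Among barcodes with Ptprc, CD8 T barcodes were 66 of 1955 in I-PpoI and 5 of 308 in wild-type. CD4 or regulatory T barcodes were 59 of 1955 and 10 of 308, a share that was not higher in I-PpoI.

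The promoters below belong to genes the results turn on, namely the NK receptors Ncr1 and Klrk1, the granule protease Gzma and the cytokine Il17a, and are shown because RUNX factors are known to bind regulatory DNA in NK and T cells. Each runs 250 bases before to 50 bases after the start site, 5-prime to 3-prime on the strand of the gene, from RefSeq on GRCm38.p6. They lie at chr7:4337465-4337764 (Ncr1, plus strand), chr6:129623815-129624114 (Klrk1, minus strand), chr13:113100932-113101231 (Gzma, minus strand) and chr1:20730655-20730954 (Il17a, plus strand). Capitals mark TGTGGT, the core of the RUNX motif, or its complement ACCACA.
Ncr1: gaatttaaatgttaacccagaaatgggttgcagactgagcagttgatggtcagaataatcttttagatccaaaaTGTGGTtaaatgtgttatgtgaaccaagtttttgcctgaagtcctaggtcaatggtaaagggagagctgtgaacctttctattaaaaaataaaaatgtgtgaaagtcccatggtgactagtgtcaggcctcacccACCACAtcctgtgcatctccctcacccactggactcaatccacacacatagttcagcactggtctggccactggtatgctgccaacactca
Klrk1: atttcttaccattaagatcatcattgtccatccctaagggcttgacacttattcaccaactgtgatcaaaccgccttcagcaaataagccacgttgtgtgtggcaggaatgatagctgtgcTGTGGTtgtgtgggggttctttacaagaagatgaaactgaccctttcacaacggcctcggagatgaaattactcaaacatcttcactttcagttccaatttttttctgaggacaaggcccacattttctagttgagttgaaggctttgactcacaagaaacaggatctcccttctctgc
Gzma: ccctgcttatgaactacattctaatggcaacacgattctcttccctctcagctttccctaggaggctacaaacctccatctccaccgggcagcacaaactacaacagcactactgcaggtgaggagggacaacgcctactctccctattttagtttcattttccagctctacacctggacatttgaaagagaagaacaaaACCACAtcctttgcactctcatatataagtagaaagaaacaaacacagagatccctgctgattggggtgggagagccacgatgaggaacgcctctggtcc
Il17a: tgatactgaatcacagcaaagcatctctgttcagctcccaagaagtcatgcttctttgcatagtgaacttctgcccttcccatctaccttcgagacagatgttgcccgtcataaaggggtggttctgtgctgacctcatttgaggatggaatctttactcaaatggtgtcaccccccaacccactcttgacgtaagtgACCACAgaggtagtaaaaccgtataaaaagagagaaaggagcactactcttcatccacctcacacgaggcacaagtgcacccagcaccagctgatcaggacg
In this window the RUNX core occurred 2 times for Ncr1 and 1 time each for Klrk1, Gzma and Il17a. On either strand, it occurred in 4573 of 27025 mouse promoters of this length (16.9%). A match of letters is a description and not a bound site.

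NK receptor genes were lower in I-PpoI members. Ncr1, which encodes the activating receptor NKp46, was found in 1 of 104 I-PpoI members with 3 UMIs, against 11 of 51 wild-type members with 1, 1, 2, 2, 4, 5, 5, 6, 6, 10 and 10 UMIs. No other retained barcode of either library held a UMI of Ncr1, including 3840 and 3151 barcodes that are neither members nor CD4 or CD8 T barcodes. Klrb1c, the NK1.1 antigen, was found in 4 and 12 members, with 6 and 30 UMIs. Both genes are part of the rule.

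Outside the rule, 7 NK receptor genes were measured, meaning at least 20 UMIs over both libraries, and 6 were at least 2-fold lower in I-PpoI members while 0 were higher. Among all 3679 genes measured, 480 (13%) were at least 2-fold higher and 300 (8.15%) at least 2-fold lower, counted on log2 ratios with 0.5 UMIs added. The median log2 ratio was -2.48 for the list and 0.02 for all genes. Klrk1, the activating receptor NKG2D, was found in 5 I-PpoI members with 10 UMIs and 16 wild-type members with 72 UMIs, or 24.8 and 439 CPM (UMIs scaled to 1000000 per library), a ratio of 0.0565 (0.0260 to 0.110). Klre1, a lectin-like receptor gene, had 3 and 29 UMIs in 2 and 11 barcodes, a ratio of 0.0421 (0.00820 to 0.136). Klrd1 (CD94) and its partners Klrc1 and Klrc2 (NKG2A and NKG2C) had ratios of 0.208, 0.163 and 0.174. Cd226, the receptor DNAM-1, had 28 and 48 UMIs in 20 and 30 barcodes, a ratio of 0.237 (0.143 to 0.386). The exception was Cd96, which also binds nectin-family ligands, with 22 and 8 UMIs and a ratio of 1.12 (0.480 to 2.91). The 11 wild-type barcodes with NK receptors alone meet the rule through Ncr1 and Klrb1c, and held 33 of 41 Klrd1 and 50 of 72 Klrk1 UMIs. The list values are therefore not independent of the rule. Without barcodes of that kind the list median was -1.23. In Trac members Klrd1 had a ratio of 0.839 (0.286 to 2.98), Klrc2 had 9 and 0 UMIs, and Klrk1 had a ratio of 0.0999 (0.0284 to 0.289).

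Most of these genes sit in the NK gene complex. Klrb1c, Klrb1f, Klre1, Klrd1, Klrk1, Klrc2, Klrc1 and Klra9 lie with Klri2 between positions 128778485 and 130193112 of chromosome 6 (GRCm38, GENCODE M21), a span of 1.41 megabases, while Ncr1 is on chromosome 7. Klrb1f had 2 I-PpoI and 20 wild-type UMIs, in 2 and 14 barcodes, and Klra9 (a Ly49 family gene) had 4 and 24 UMIs, in 2 and 5 barcodes. Near-identical copies in the Klra, Klrb1 and Klrc families can share reads, so values of single members of these families are uncertain.

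The signalling adaptors split. Fcer1g and Tyrobp (DAP12), which pair with activating NK receptors, had 10 and 105 UMIs and 11 and 77 UMIs in I-PpoI and wild-type members, with ratios of 0.0387 (0.0181 to 0.0741) and 0.0581 (0.0279 to 0.110). Hcst (DAP10), the partner of NKG2D that T cells also express, had 217 and 134 UMIs, a ratio of 0.659 (0.529 to 0.823), and Cd247 (CD3 zeta) a ratio of 1.26 (0.603 to 2.88). Macrophages express both Fcer1g and Tyrobp, and RNA free in the droplets carries them. A UMI of Fcer1g was found in 3.85% of I-PpoI and 23.5% of wild-type members, against 16.6% and 6.01% of endothelial barcodes. Median depths were 6486 and 3591 UMIs in endothelial barcodes and 2800 and 3016 in members. The I-PpoI share was thus not above that of the deeper endothelial barcodes. Of the 10 I-PpoI Fcer1g UMIs, 6 lay in the single barcode with NK receptors alone. Among wild-type members, 103 of the 105 Fcer1g UMIs and 77 of the 77 Tyrobp UMIs lay in the 11 barcodes with NK receptors alone. Without barcodes of that kind the log2 ratio of Tyrobp was 0.71, on 2 and 0 UMIs, in place of -4.05.

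The barcodes with NK receptors alone carried effector genes in both libraries. The single I-PpoI barcode of this kind held 3 UMIs of Ncr1, 6 of Xcl1, 5 of Nkg7, 6 of Fcer1g, 9 of Tyrobp and 2 of Klrk1, and 0 of Eomes and Cxcr6. In the 11 wild-type barcodes, Nkg7, a granule exocytosis gene, and the chemokine Xcl1 were found in 11 of 11, Fcer1g in 11, Klrk1 and Ccl5 in 10, Cxcr6 in 9 and perforin (Prf1) in 6. The NK cell factor Eomes was found in 2 of 11 and Tbx21 (T-bet) in 4. The integrin Itga1, which marks tissue-resident group 1 innate lymphocytes, was found in 4 of 11 with 10 UMIs. A UMI of Trbc1, a T cell receptor beta constant gene, was found in the I-PpoI barcode and in 10 of the 11. Among genes outside the rule with at least 15 UMIs in a subgroup, the limit for all leading genes given here, the 8 leading genes of these 12 barcodes over other members were Tyrobp, Fcer1g, Ccl4, Gzma, Klrb1f, Klre1, Cd7 and Klrc1.

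Of 12 cytotoxic genes measured, 7 were at least 2-fold lower in I-PpoI members and 1 was higher, with a median log2 ratio of -1.58. Without the NK receptor barcodes the median was -0.24, that of NK receptors -1.23 and the log2 ratio of Nkg7 -2.15, against -2.63 with them. Nkg7 had 73 UMIs in 27 I-PpoI members and 185 UMIs in 36 wild-type members, a ratio of 0.161 (0.121 to 0.212). It was found in 26.0% of I-PpoI members (17.9 to 35.5%) and 70.6% of wild-type members (56.2 to 82.5%), against at most 0.306% of endothelial or tubule barcodes in either library. Gzma (granzyme A) had 4 and 68 UMIs, but 53 of the 68 came from 1 wild-type barcode and 11 from another, and its log2 ratio was -0.76 without NK receptor barcodes and -5.23 with them. Gzmb had 14 and 22 UMIs in 5 and 6 barcodes, Fasl 8 and 15 UMIs, and the protease gene Ctsw 54 and 70 UMIs, with ratios of 0.259, 0.217 and 0.314. Serpinb9, an inhibitor of granzyme B, was the gene above 2-fold in the other direction, with 22 and 3 UMIs and a ratio of 2.98 (0.896 to 15.6), an interval that holds 1.

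All 3 measured chemokines were lower in I-PpoI members. Xcl1, which attracts cross-presenting dendritic cells, had 36 UMIs in 15 I-PpoI members, none with more than 6, against 160 UMIs in 28 wild-type members, up to 27 in 1 barcode. The gene lies at chr1:164931644-164935527 (GRCm38, minus strand) and had a ratio of 0.0915 (0.0619 to 0.132). Ccl5 had 413 and 352 UMIs in 47 and 34 members, a ratio of 0.477 (0.413 to 0.552), and 77 of the I-PpoI UMIs lay in 1 gamma-delta barcode. Ccl4 had 9 and 88 UMIs, of which 50 and 30 wild-type UMIs lay in 2 barcodes. Barcodes with NK receptors alone held 2 of the 9 I-PpoI and all 88 of the wild-type Ccl4 UMIs, so outside them Ccl4 was found in the I-PpoI library alone. Without those barcodes the log2 ratio of Ccl5 was -0.57, short of 2-fold and against -1.07 with them, and that of Xcl1 was -2.31, against -3.43. Interferon gamma (Ifng) had 37 UMIs in 6 I-PpoI members and 27 UMIs in 15 wild-type members, so its share of barcodes was 5.77% (2.15 to 12.1%) and 29.4% (17.5 to 43.8%), while its summed ratio was 0.558 (0.330 to 0.952). With each barcode thinned to 1000 UMIs these shares were 4.95% and 12.0%.

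**Figure D2:**
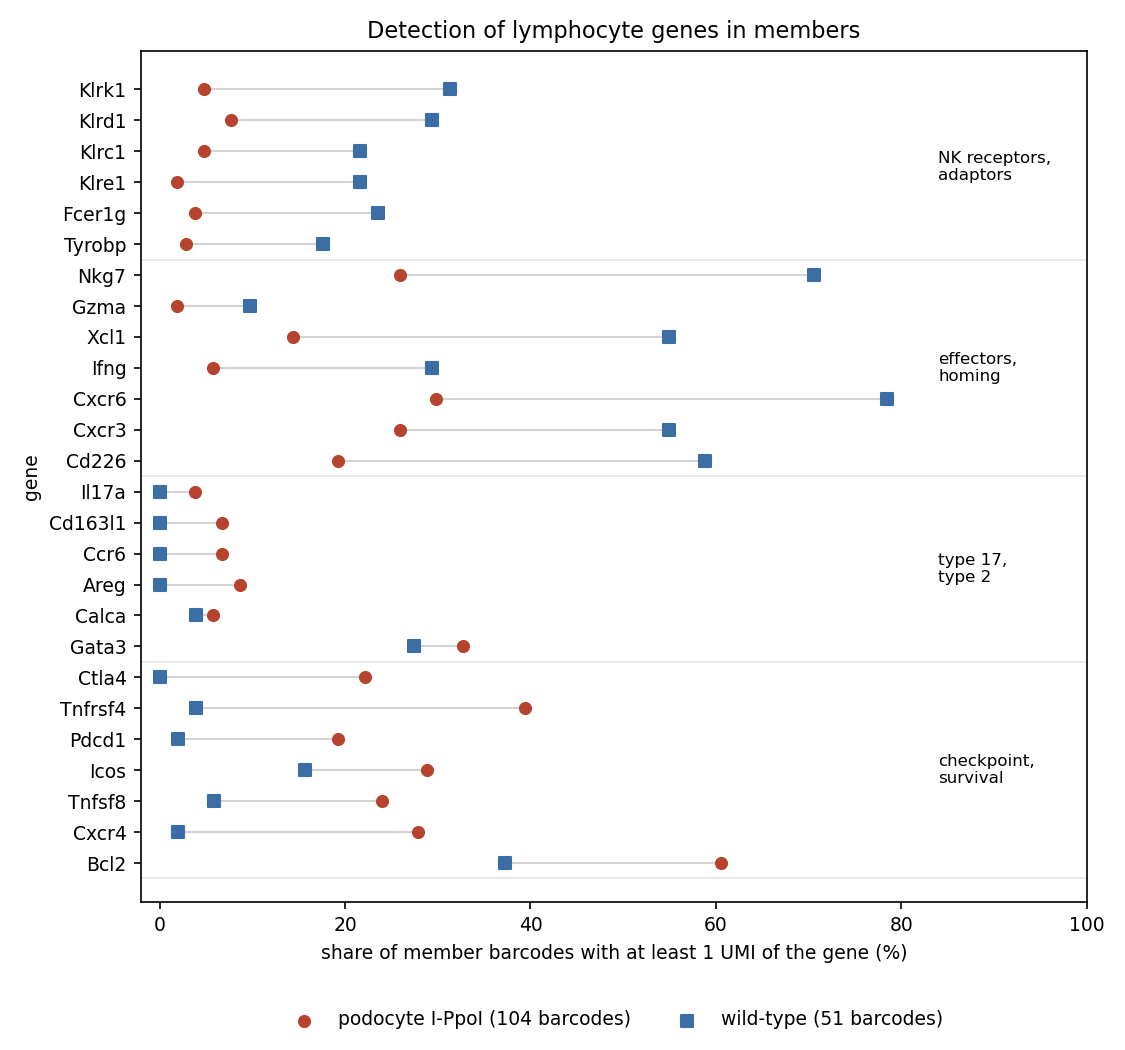
Share of member barcodes (%) with at least 1 UMI of each gene, ordered by role, in the podocyte I-PpoI library (red circles, 104 barcodes) and the wild-type library (blue squares, 51 barcodes). Nkg7, Xcl1 and Cxcr6 were found in 26.0%, 14.4% and 29.8% of I-PpoI and 70.6%, 54.9% and 78.4% of wild-type members, and Ctla4, Tnfrsf4 and Pdcd1 in 22.1%, 39.4% and 19.2% against 0, 3.92% and 1.96%.

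Homing and residency genes lay on both sides. Cxcr6, the receptor for CXCL16 and a residency marker, had 65 and 129 UMIs in 31 and 40 members, a ratio of 0.205 (0.150 to 0.278), and was also found in 9 of 12 I-PpoI gamma-delta barcodes. Cxcr3, a receptor for inflammatory chemokines, had a ratio of 0.334 (0.221 to 0.503). The integrin genes Itgal and Itgb2, which together make LFA-1, had ratios of 0.332 and 0.260. In the other direction, Cxcr4 had 47 UMIs in 29 I-PpoI members and 1 UMI in wild-type, and S1pr1, the egress receptor, 38 and 5 UMIs, ratios of 19.1 (3.27 to 771) and 3.09 (1.22 to 10.1). Of 13 chemokine receptor and adhesion genes measured, 6 were at least 2-fold lower and 2 higher. Of 11 genes of the type 1 innate and residency list, 4 were lower (Itga1, Cxcr6, Tnfsf10 and Xcl1) and 0 higher, while Cd69 and Rgs1 had ratios of 1.58 and 1.62. Over all genes measured, 8.15% were lower and 13% higher. Wild-type barcodes with NK receptors alone held 111 of the 160 wild-type Xcl1 UMIs and 21 of the 129 of Cxcr6. The list's median log2 ratio was -0.41, and -0.09 without barcodes of that kind.

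Gamma-delta members numbered 12 in the I-PpoI and 2 in the wild-type library. The ratio of their shares of members was 2.94, with an interval that holds 1 (0.655 to 27.1). Of retained barcodes it was 4.72, with an interval just above 1 (1.05 to 43.4), so the reading depends on the denominator. Some of the I-PpoI gamma-delta members carried genes of interleukin-17-producing cells. Trdc, part of the rule, had 78 UMIs in 12 I-PpoI members and 2 UMIs in 1 wild-type member. Cd163l1 (SCART1), a scavenger receptor gene of gamma-delta T cells that make interleukin-17, had 18 UMIs in 7 of the 12 I-PpoI gamma-delta barcodes and 0 in every other member of both libraries. Trdv4, a delta variable segment, had 29 UMIs in 6 of the 12. Il17a had 51 UMIs in 4 I-PpoI members, 21 in a Trac barcode and 18, 10 and 2 in gamma-delta barcodes, and 0 in wild-type. Taking 3 UMIs as the floor for a count of 0, it was at least 6.92-fold higher in I-PpoI. Elsewhere in the series it was found in 1 CD4 T barcode of the I-PpoI library, with 27 UMIs, and in 0 of 3840 I-PpoI and 0 of 3151 wild-type barcodes outside the T cell and member sets. Its share was 3.85% (1.06 to 9.56%) of I-PpoI members and 0 of 51 wild-type members, which allows a share of up to 5.88%, so a difference in shares was not detectable at this depth.

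The 4 Il17a barcodes all held Maf, a factor of these cells, Tmem176a, Tmem176b, Cxcr6 and the lymphotoxin gene Ltb, and 0 held Ifng. The interleukin-23 receptor gene Il23r and the chemokine receptor gene Ccr6 were each found in 1 of the 4. Across all members Ccr6 had 11 UMIs in 7 I-PpoI barcodes and 0 in wild-type. Of 4 genes of the innate type 3 and interleukin-17 list measured outside the rule, 1 was at least 2-fold higher (Il17a) and 0 lower, and Maf, Tmem176a and Tmem176b had ratios of 1.15, 1.15 and 1.86. The 8 leading genes of the 14 gamma-delta barcodes over other members were Cd163l1, Trdv4, Il17a, Ramp1, Ckb, Lmo4, Rora and Il18r1.

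The 7 barcodes with Il7r as their only gene of the lymphocyte sum held some genes of group 2 innate lymphoid cells, and some of T cells. Gata3, the master factor of these cells, was found in 3 of 4 I-PpoI and 3 of 3 wild-type barcodes, with 7 and 13 UMIs. Il1rl1, the interleukin-33 receptor, was found in 2 and 2, with 2 and 4 UMIs. Calca, which encodes calcitonin gene-related peptide, had 95 UMIs in 3 of 4 and 4 UMIs in 2 of 3. Of other genes listed for these cells, Rora, Areg and Icos were found in 3, 2 and 1 of the 4 I-PpoI barcodes and in 0 of the 3 wild-type barcodes. The T cell receptor beta genes Trbc1 and Trbc2 were found in 2 and 1 of the 4 I-PpoI barcodes and in 1 and 3 of the 3 wild-type barcodes. In all members Calca had 117 and 4 UMIs, a ratio of 11.9 (4.53 to 44.4), from I-PpoI barcodes with 59, 26, 20, 10, 1 and 1 UMIs, the one with 20 being gamma-delta. The 4 and 3 barcodes were a like share of all retained barcodes, with a ratio of 1.05 whose interval is wide (0.177 to 7.16). Of members the ratio was 0.654 (0.111 to 4.46). Of 6 measured genes of the type 2 list, 4 were at least 2-fold higher (Areg, Calca, Il2ra and Icos), but 3 of these are also used by activated and regulatory T cells. The 8 leading genes of these 7 barcodes over other members were Calca, Ptgs2, Hes1, Gm20186, Fos, Lztfl1, Nr4a1 and Zfp36.

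Areg, the growth factor amphiregulin, had 37 UMIs in 9 I-PpoI members, 5 of them Trac barcodes, 2 CD3 only and 2 Il7r only, and 0 UMIs in wild-type, at least 5.02-fold higher. The highest single barcode held 18. It was not particular to members, since 11 of 75 CD4 or regulatory T barcodes and 50 of 3840 other I-PpoI barcodes held it, and 0 of 3151 in wild-type. It was found in 8.65% of I-PpoI members and 3.06% of I-PpoI tubule barcodes.

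In the Trac members, taken alone, Nkg7, Cxcr6 and Xcl1 were lower in I-PpoI, while Gzmb, Gzmk, Ccl3 and Ccl4 had few UMIs. In these 64 and 25 barcodes, 468 of 2461 genes measured (19%) were at least 2-fold higher in I-PpoI and 203 (8.25%) at least 2-fold lower, with a median log2 ratio of 0.14. Nkg7 was found in 19 of 64 and 17 of 25, Cxcr6 in 15 and 20, Xcl1 in 12 and 12, and Cd226 in 15 and 18. The ratios of Nkg7 and Xcl1 were 0.223 (0.152 to 0.323) and 0.248 (0.138 to 0.441). Of 6 cytotoxic genes measured there, 3 were at least 2-fold lower and 1 higher, with a median log2 ratio of -0.61. Gzmb had 11 and 0 UMIs, Gzmk 6 and 0, and Ccl3 and Ccl4 3 and 0 each. The lower interval ends of their ratios, 0.752, 0.353, 0.124 and 0.124, were all below 1. Ifng had a ratio of 0.572 with an interval that holds 1 (0.264 to 1.31). Cxcr6 had 25 and 76 UMIs there, a ratio of 0.0986 (0.0601 to 0.157). Il7r, the interleukin-7 receptor and part of the rule, was found in 51 of 64 and 3 of 25, with 270 and 5 UMIs. Slamf6, a receptor of less differentiated T cells, had 33 and 0 UMIs in them, and Tcf7, a factor of naive and memory T cells, 30 and 2 UMIs, a ratio of 4.49 (1.14 to 38.8). Tbx21 had 4 and 8 UMIs, a ratio of 0.150 (0.0330 to 0.559).

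Several receptors of activated and regulatory T cells were higher in I-PpoI members, while the checkpoint and costimulation lists as a whole were not, with median log2 ratios of 0.11 and -0.47. Ctla4, the inhibitory receptor that competes for B7 ligands, had 72 UMIs in 23 I-PpoI members, up to 11 in 1 barcode, and 0 UMIs in 51 wild-type members, at least 9.76-fold higher. The gene lies at chr1:60887000-60915832 (GRCm38, plus strand). Its share was 22.1% (14.6 to 31.3%) of I-PpoI members and 0 of wild-type members, which allows up to 5.88%, a limit below the I-PpoI interval. Tnfrsf4 (OX40) had 104 and 3 UMIs in 41 and 2 barcodes, a ratio of 14.1 (4.69 to 69.5). Pdcd1 (PD-1) had 30 and 1 UMIs in 20 and 1 barcodes, a ratio of 12.2 (2.03 to 498). Tnfsf8 (CD30 ligand) had 68 and 3 UMIs, a ratio of 9.22 (3.02 to 45.8), although 10.8% of I-PpoI and 0.140% of wild-type endothelial barcodes also held it. Of 7 checkpoint genes measured 2 were at least 2-fold higher and 0 lower, and of 10 costimulatory genes 3 were higher (Icos, Tnfrsf4 and Tnfrsf9) and 2 lower (Cd226 and Cd7). Batf, a factor of effector and regulatory T cells, had 20 UMIs in 9 I-PpoI members and 0 in wild-type.

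Trac members of I-PpoI kidneys were set beside T cells with coreceptor UMIs in the same library, as a description with no test. They were nearer CD4 barcodes for most of the genes compared and nearer CD8 barcodes for others. Tnfrsf4 was found in 48.4% of Trac members, 65.3% of CD4 and 5.56% of CD8 barcodes. Nkg7 was found in 29.7%, 21.3% and 95.8%, and Klrd1 in 7.81%, 1.33% and 52.8%. Shares nearer those of CD8 barcodes were seen for Pdcd1 (18.8%, 32.0% and 9.72%), Trbc1 (45.3%, 33.3% and 45.8%) and Cxcr3 (32.8%, 22.7% and 34.7%). By the difference of shares, Ikzf2 (Helios), frequent in regulatory T cells, was also nearer CD8 barcodes, found in 23.4%, 54.7% and 2.78%. The same held for Ctla4, found in 26.6%, 52.0% and 12.5%, but its CPM of 213, 347 and 43.8 was nearer CD4 barcodes. Some of the CD4 barcodes were chosen by Foxp3 without a Cd4 UMI. Nkg7 was found in 16 of 75 I-PpoI and 9 of 10 wild-type CD4 barcodes, and Cxcr6 in 15 of 75 and 7 of 10. Among wild-type CD8 barcodes these genes were found in 5 and 2 of 5.

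**Figure D3:**
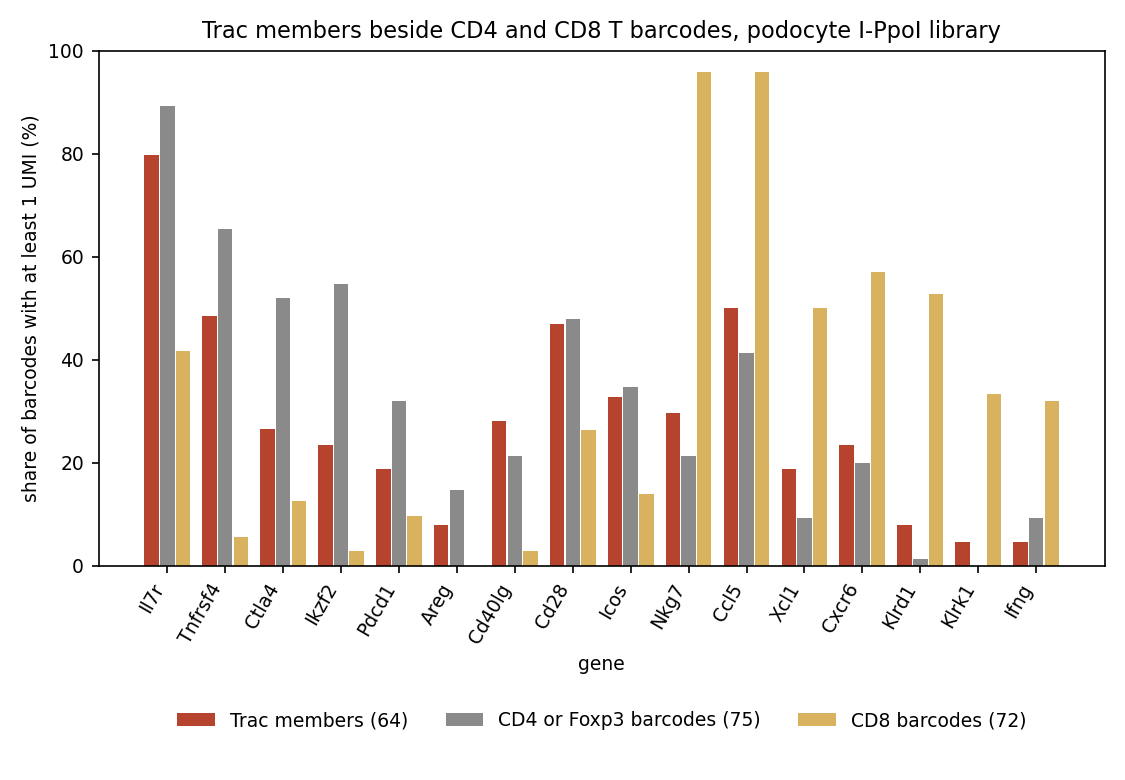
Share of barcodes (%) with at least 1 UMI of each gene in the podocyte I-PpoI library, for 64 Trac members (red), 75 CD4 or Foxp3 barcodes (grey) and 72 CD8 barcodes (yellow). Nkg7 was found in 29.7%, 21.3% and 95.8% and Tnfrsf4 in 48.4%, 65.3% and 5.56%. Il7r is one of the genes that chose the members.

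T cell receptor signalling genes leaned slightly lower. Of 19 measured, 0 were at least 2-fold higher and 3 lower (Thy1, Ptprc and Sh2d1a), against 13% and 8.15% of all genes. Their median log2 ratio was -0.42, but -0.10 as a mean over barcodes scaled to the same total. Lck, Lat and Zap70, the proximal kinases and scaffold, had ratios of 0.844, 0.826 and 0.759, with intervals that all hold 1. Ptprc (CD45) itself had 193 and 182 UMIs, a ratio of 0.431 (0.350 to 0.531), and was found in 73.1% and 86.3% of members. The helix-loop-helix gene Id2, needed for innate lymphoid and NK cells, had 183 and 189 UMIs, a ratio of 0.394 (0.320 to 0.485).

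Genes of antigen processing leaned lower and interferon genes stayed near the background. Of 14 MHC class I pathway genes measured, 0 were at least 2-fold higher and 4 lower: Nlrc5, the activator of the class I genes, Psmb9 and Psmb10, subunits of the immunoproteasome, and H2-Q7, with ratios of 0.263, 0.362, 0.463 and 0.465. H2-K1 and B2m had ratios of 0.551 (0.489 to 0.621) and 0.635 (0.552 to 0.733). Of 16 interferon-induced genes measured, 3 were at least 2-fold higher (Ifit3, Irf7 and Iigp1) and 2 lower (Igtp and Gbp4), with a median log2 ratio of -0.22. The high sums came from few barcodes, with 17 of 22 Ifit3 UMIs and 19 of 23 Iigp1 UMIs in 1 I-PpoI barcode.

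Immediate early and NF-kappaB feedback genes leaned higher in I-PpoI members. Of 22 measured, 5 were at least 2-fold higher (Fosb, Nr4a1, Zfp36, Nfkbia and Tnfaip3) and 0 lower, with a median log2 ratio of 0.62. Nfkbia, the inhibitor that NF-kappaB induces, had 304 UMIs in 58 and 34 UMIs in 15 members, a ratio of 3.64 (2.55 to 5.35). Nr4a1, induced by T cell receptor signals, had 50 and 2 UMIs, a ratio of 10.2 (2.67 to 86.3). Over both libraries, the 7 barcodes with Il7r alone, which held no CD3 or Trac UMI, had 20 Nr4a1 and 41 Zfp36 UMIs. All other members had 32 and 86. The heat shock genes Hspa1a and Hspa1b, near-identical copies, lay on the other side of 1, with ratios of 0.558 (0.353 to 0.889) and 0.522 (0.381 to 0.718). Of 7 survival genes, 2 were at least 2-fold higher, Bcl2a1b and Bcl2a1d, a pair of near-identical copies that can share reads. Bcl2, the founding survival gene, had 144 and 29 UMIs and a ratio of 2.02 (1.35 to 3.12), but a log2 ratio of 0.99 with 0.5 UMIs added, just inside the limit.

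Proliferation and the p53 response gave small numbers. Of 7 cell cycle genes measured, 4 were at least 2-fold higher (Top2a, Stmn1, Tubb5 and H2afz) and 0 lower, with a median log2 ratio of 1.10. However, 16 of 24 Top2a UMIs, 21 of 29 Stmn1 UMIs and 14 of 14 Birc5 UMIs lay in 1 I-PpoI barcode each. Targets of p53, the factor that DNA breaks activate, were near the background, with 0 of 5 measured genes past 2-fold either way and a median log2 ratio of -0.08. In Trac members alone the median was 0.73, with 1 of 3 measured genes higher. Below the limit of 20 UMIs, Cdkn1a (p21) had 16 and 1 UMIs and the death receptor gene Fas 19 and 0 UMIs, in 10 barcodes each in I-PpoI.

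**Figure D4:**
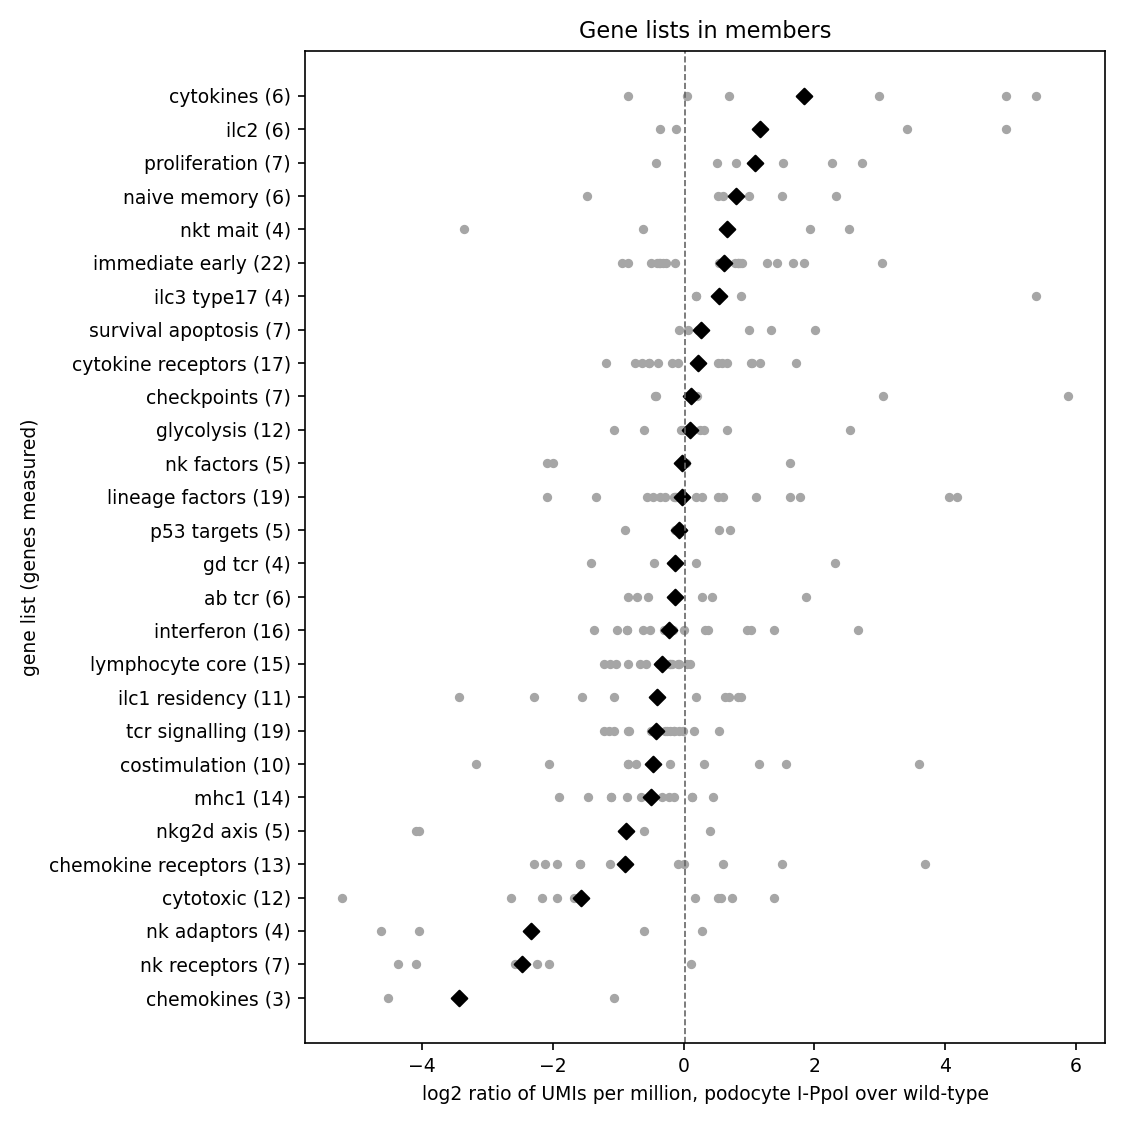
Log2 ratio of CPM, podocyte I-PpoI over wild-type, for measured genes outside the rule (grey points) and the median of each list (black diamonds), with the number of genes measured in brackets and the median of all 3679 genes (0.02) as a dashed line. NK receptors, NK adaptors, cytotoxic genes and chemokines had medians of -2.48, -2.33, -1.58 and -3.43, and cytokines, type 2 innate genes and proliferation 1.84, 1.16 and 1.10.

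RNA of other cell types moved with the library, and it set the largest ratios. Ranked by the interval bound nearest 1, the first 10 genes higher in I-PpoI members were Mgp, Col1a1, Acta2, Sparc, Col1a2, Timp1, Tagln, Col3a1, Fn1 and Bgn, genes of fibroblasts and mural cells. They lay in few barcodes. Mgp had 3365 I-PpoI UMIs, of which 2375, 633, 245 and 98 came from 4 Trac barcodes, and Col1a1 had 777 UMIs in 4 barcodes, with 522 in 1. The fibroblast and mural list as a whole had 2413 UMIs in I-PpoI members, 5982 CPM, and 0 in wild-type. The 8 leading genes of Trac members over other members, Hba-a2, Col1a1, Acta2, Col1a2, Col3a1, Fn1, Hbb-bs and Mgp, were fibroblast, mural or haemoglobin genes, and those of the 5 barcodes with both receptor types were Plvap, Flt1, Fabp4, Egfl7, Rgcc, Plpp1, Ehd4 and Emcn, several of them endothelial. The 28 CD3-only barcodes were led by Socs2, Kap, Ifng, Klf13, Ikzf2, Trbc1, Slc38a2 and Dusp2, of which Kap is a proximal tubule gene. Among the wild-type members 1 barcode held 3425 UMIs of the haemoglobin gene Hbb-bs and 1 held 106 UMIs of Slc12a1 and 111 of Umod, genes of the thick ascending limb. Endothelial markers had 185 and 11 UMIs and proximal tubule markers 42 and 361, or 104 and 2200 CPM. Macrophage and monocyte markers had 159 and 62 UMIs, 394 and 378 CPM, and podocyte markers 8 and 0 UMIs. Dendritic cell markers had 28 and 3 UMIs, neutrophil markers 8 and 8, mast cell and basophil markers 9 and 2, B and plasma cell markers 26 and 18, and injured epithelium markers 581 and 109. Distal nephron markers had 3 and 221 and platelet and erythroid markers 14 and 4810. Ctla4 and Ikzf2, listed for CD4 or CD8 T cells, had 138 and 12. The part of this RNA in the other results was not tested beyond the values below.

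Over 2% of UMIs came from lists of other kidney cells in 3 of 104 I-PpoI and 2 of 51 wild-type members, which held 18.6% and 7.97% of all member UMIs. Without these 5 barcodes, 262 of 3071 genes (8.53%) were at least 2-fold higher and 260 (8.47%) lower. The same ranking then named Mgp, Fn1, Ctla4, Il17a, Tnfrsf4, Calca, Rbm3, Thbs2, Areg and Thbs1 as higher, and the 10 lower genes were the same in both rankings: Gzma, Klrk1, Xcl1, Klre1, Klrb1f, Ly6c2, AC163354.1, Klra9, Nkg7 and Cd7. This repeat kept the barcodes with NK receptors alone, so the lower genes are not independent of the rule. Among all members without those barcodes, the log2 ratios of Gzma and Cd7 were -0.76 and -1.61, against -5.23 and -3.17 with them. Those of Klre1 and Ly6c2 were -4.27 and -3.63, against -4.37 and -3.36. Of the higher genes, Mgp, Fn1, Thbs2 and Thbs1 still rested on 1 barcode each, with 2375 of 2389, 169 of 169, 38 of 38 and 101 of 103 UMIs. The lists used held neither Mgp nor haemoglobin genes. The barcode with 2375 Mgp UMIs and the wild-type barcode with 3425 Hbb-bs UMIs therefore stayed in. Rbm3, a cold-inducible RNA-binding protein, was spread widely, with 352 UMIs in 93 of 101 I-PpoI members and 22 UMIs in 16 of 49 wild-type members, a ratio of 7.36 (4.78 to 11.9). Ly6c2, an antigen of effector and memory T cells and of monocytes, had 13 and 56 UMIs, in 6 and 13 barcodes, and Cd7, expressed by T and NK cells, 10 and 38 UMIs, in 3 and 13 barcodes.

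**Figure D5:**
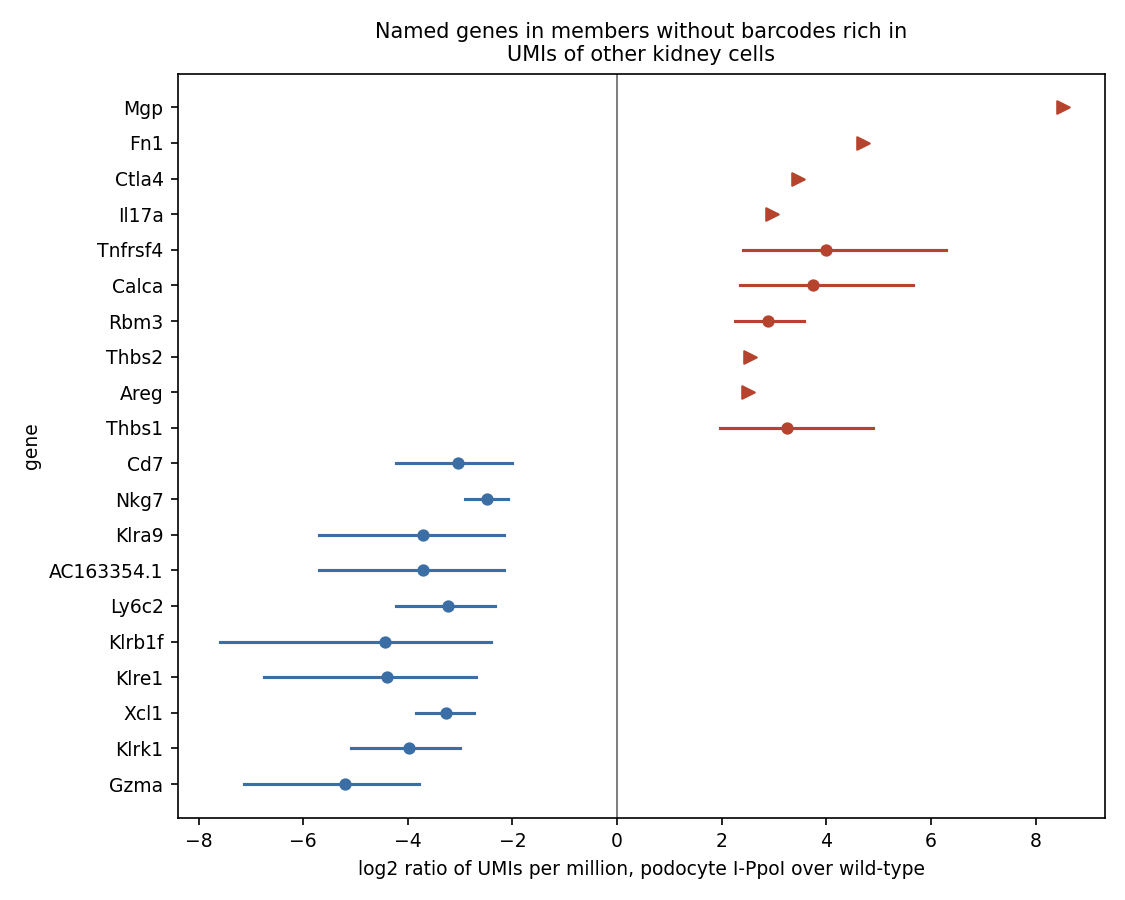
Log2 ratio of CPM, podocyte I-PpoI over wild-type, for the 20 genes ranked by their interval bound nearest 1, in 101 I-PpoI and 49 wild-type members left after taking out barcodes rich in UMIs of other kidney cells. Points with lines are ratios with 95% counting intervals, triangles are lower bounds against a floor of 3 wild-type UMIs, and Tnfrsf4, Klrk1 and Xcl1 lie at ratios of 15.9, 0.0638 and 0.103.

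Relative to all other retained barcodes, and among genes outside the rule with at least 50 UMIs in members, the 15 most enriched were Il17a, Cd40lg, Gzma, Txk, Cxcr6, Il2rb, Icos, Calca, Trbc1, Ifng, Sh2d1a, Cd28, Cd5, Gimap3 and Cd226. Cxcr6 had 342 CPM in members and 3.76 CPM elsewhere, and Il2rb, a chain of the interleukin-2 and interleukin-15 receptors, 252 and 2.88 CPM. The kinase gene Txk, a Tec family member, had 204 and 2.17 CPM, and within members 44 and 72 UMIs in I-PpoI and wild-type, a ratio of 0.249 (0.167 to 0.367). These genes follow the choice of members and are given as a description.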

How the data were processed

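Kidney cortex cells were measured with a 3-prime droplet kit (version 3.1, per the labels' protocols), 1 library per group. The authors deposited raw counts, the number of UMIs of each gene in each barcode, made with Cell Ranger against mm10, per the labels' protocols. The labels give version 3.1 and the file headers version 6.0.2. Barcodes with at least 200 genes and at most 50% mitochondrial UMIs were retained (4091 I-PpoI and 3217 wild-type). Doublets and free RNA were not removed from the main values. Scrublet in scanpy 1.11.5 marked 0.733% of I-PpoI and 0.155% of wild-type barcodes by its automatic limit, so the top 4% of scores served as the alternative. Sums and intervals used numpy 2.4.6, scipy 1.17.1 and pandas 2.3.3.

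Members, gene lists, subgroups and the naming rule were chosen with earlier results of these data known. Members' UMIs were summed per library and given as CPM. Shares have exact Clopper-Pearson, sums exact Poisson and ratios exact conditional binomial intervals of 95%, which cover counting error only, since cells are not replicates. Genes absent from 1 library are bounds against a floor of 3 UMIs. List medians use log2 ratios with 0.5 UMIs added. Genes with at least 20 UMIs were measured, and called at 2-fold.

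The rule named 10 genes each way by the interval bound nearest 1, leaving out genes of the member rule, mitochondrially encoded, ribosomal protein, haemoglobin and predicted genes and genes higher in other barcodes (1231 of 3499), and, as descriptions, 15 genes enriched in members (at least 50 UMIs) and 8 per subgroup (at least 15 UMIs). Alternatives changed the limits on barcodes, the denominator, the scaling, the depth and the minimum of UMIs. Values without NK receptor barcodes, in Trac members alone and without the richest barcode, and the repeated ranking without barcodes rich in other cells' UMIs, were added after the data were seen. Intervals were tested on simulated counts.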

Additional observations from a re-analysis of the deposited data

How the results depend on the processing

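The ratio of member shares, 1.60 of retained barcodes, reversed to 0.750 without proximal tubule barcodes, 0.272 among barcodes with Ptprc and 0.446 among barcodes past the lymphocyte sum, while the 6 other limits on barcodes kept its direction. The ratio of NK receptor barcodes was 0 with at least 1 UMI of Ptprc, since the single I-PpoI barcode had none. The 480 higher genes became 186 with Ptprc, 262 without members rich in other cells' UMIs, 78 when thinned to 1000 UMIs, 2833 with no minimum of UMIs, 140 with at least 50 UMIs and 196 in Trac members without barcodes rich in other cells' UMIs. The 300 lower genes became 92, 2332, 93 and 146 under the last 4 of these settings. The median log2 ratio of immediate early genes was 0.96 when thinned. Medians of NK receptors, cytotoxic genes and chemokines stayed negative under every alternative in which at least 3 genes were measured. Most of these alternatives kept the barcodes with NK receptors alone, so these signs are not independent of the rule. Without those barcodes the medians of NK receptors and cytotoxic genes were -1.23 and -0.24, and chemokines had none. In Trac members only 2 NK receptor genes and 2 chemokines were measured. No ratio of Il7r-only barcodes could be had without top doublet scores, since none was left in wild-type.

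Log2 ratios that changed sign were those of Thbs1 (-2.09 with Ptprc), Tyrobp (0.71 without NK receptor barcodes, 0.58 in Trac members and 0.80 there without rich barcodes), Fcer1g (0.58 and 0.062 in the same 2 Trac sets), Cd163l1 (-1.74 and -1.52 there, with no UMI in either library) and Gata3, at -0.37 in the main values (0.50 without top doublet scores, 0.057 and 0.27 in Trac members, 0.12 as a mean over barcodes and 0.29 when thinned). The cause was not tested. Scrublet's top 4% of scores took in 2 members of the I-PpoI and 5 of the wild-type library. No paired analysis was possible because each group holds 1 library. Counts of 1 to 3 UMIs limit most single genes.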

Other observations

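Of 6 naive and memory genes measured in members, 2 were at least 2-fold higher in I-PpoI (S1pr1 and Klf2) and 1 lower (Satb1), with a median log2 ratio of 0.80. Klf2, a factor of quiescence and egress, had 141 I-PpoI and 11 wild-type UMIs, but endothelial barcodes held it in 74.7% and 83.1%, and 41 of the 141 UMIs lay in 1 barcode. Of 12 glycolysis genes 1 was higher (Hk2) and 1 lower (Slc2a3). Of 17 cytokine receptor and signalling genes outside the rule, 4 were higher (Il2ra, Tgfbr1, Tgfbr2 and Cish) and 1 lower (Ifnar2). Cish, a feedback gene of cytokine signalling, had 52 and 6 UMIs in 36 and 5 members, a ratio of 3.53 (1.52 to 10.0).

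Among 19 lineage factors, 5 were at least 2-fold higher and 2 lower (Tbx21 and Id2). Bhlhe40, which T cells use for cytokine production, had 88 and 10 UMIs, a ratio of 3.58 (1.86 to 7.73), and Ikzf2 66 and 12 UMIs, a ratio of 2.24 (1.20 to 4.55). Id3 had 66 and 1 UMIs but in 5 and 1 barcodes, and Zeb2 26 and 3 UMIs, which became 9 and 3 without barcodes rich in other cells' UMIs. The lymphocyte core list of 15 genes had 0 higher and 3 lower genes and a median log2 ratio of -0.34. As a mean over barcodes scaled to the same total, that median was -0.06.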
